A study of Bos taurus with 8 samples.

Results

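The genes described here are ANGPTL4, its relatives ANGPTL1 and ANGPTL2, the lipases LPL, LIPG and LIPC, and the lipase partners LMF1 and GPIHBP1. They are 8 of 18010 genes measured. A gene was taken where a probe set carried its symbol alone in the platform annotation, and each of the 8 had exactly 1 such probe set, so no choice between probe sets arose. No NEFA minus BSA value entered this probe set rule, but the 8 genes were chosen with earlier results of these data known. The cells were primary cattle granulosa cells, the oestradiol-making cells that line the ovarian follicle, cultured either with mixed non-esterified fatty acids (NEFA, 4 arrays) or with bovine serum albumin (BSA, 4 arrays). Both groups grew without serum in alpha-MEM that held FSH, IGF-1 and androstenedione. The medium holding NEFA or BSA was given on day 2 and again on day 4, and RNA was taken on day 6. The labels do not give the composition or dose of the mix, nor whether a replicate is its own animal, a pool or a dish. The p-values therefore rest on the spread among these 8 samples alone, and that spread may be technical.

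Circulating triglyceride is carried in lipoproteins and is opened to cells by lipoprotein lipase (LPL), which frees fatty acids at the cell or vessel surface. LPL is folded in the endoplasmic reticulum with the help of LMF1, is held on the vessel wall by GPIHBP1, and is inactivated by ANGPTL4, a secreted protein that cells make in response to fatty acids, low oxygen and glucocorticoids. In many tissues fatty acids switch ANGPTL4 on through the PPAR nuclear receptors, and the protein then limits further release of fatty acids by LPL.

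Levels below are RMA values on the log2 scale, in which 1 unit stands for a doubling of signal. RMA subtracts background, brings the arrays to 1 distribution and reduces each probe set to 1 value, so it hides any shift common to all transcripts. Array medians ran from 4.78 to 4.86. Over all probe sets, which do not vary independently, array pairs of the same group had Pearson correlations of 0.9935 to 0.9948, and pairs of different groups 0.9914 to 0.9935. Of the 12 granulosa marker genes listed, 12 were measured and none lay among the dimmest 33.3% of probe sets (mean level up to 3.56). Levels of different probe sets are not compared with each other, since probes differ in brightness. In RNA from whole cultures, fewer cells of a type and less RNA per cell cannot be told apart. Each change is the NEFA mean minus the BSA mean, given with limma's standard error (SE), and a gene is said to rise or fall only where the Benjamini-Hochberg adjusted p over all probe sets was under 0.05.

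ANGPTL4 rose with NEFA and was the only one of the 8 genes to pass the test. It read 7.41, 7.22, 7.30 and 7.33 on the NEFA arrays, against 4.20, 4.35, 3.96 and 4.17 on the BSA arrays. The groups lay far apart: the lowest NEFA array was 2.87 above the highest BSA array, and the widest gap between any pair of arrays was 3.45. The mean was 7.32 ± 0.08 with NEFA and 4.17 ± 0.16 with BSA (SD, n = 4 each), a change of 3.15 (SE 0.086, limma, adjusted p = 1.99e-06). That is 8.85-fold, with a 95% interval of 7.72 to 10.1-fold. Among all 18010 genes it had the highest change and the smallest p. The spread of ANGPTL4 between arrays of a group was of ordinary size, the median SD over all genes being 0.11 in each group.

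Over all genes, 2.35% passed the test in either direction and 0.999% passed as higher and 1.35% as lower, beside 1 of these 8 as higher and 0 as lower. The 7 others did not pass in limma, although 2 of them, ANGPTL2 and LPL, had an unadjusted p under 0.05, as did 16.8% of all genes. Groups that did not overlap were found for 1 of the 8 genes and for 12.4% of all genes. The median change was 0.05 for the 8 genes and 0.005 for all genes. These 8 genes were chosen with earlier results of these data known, so their counts are not independent evidence.

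**Figure D1:**
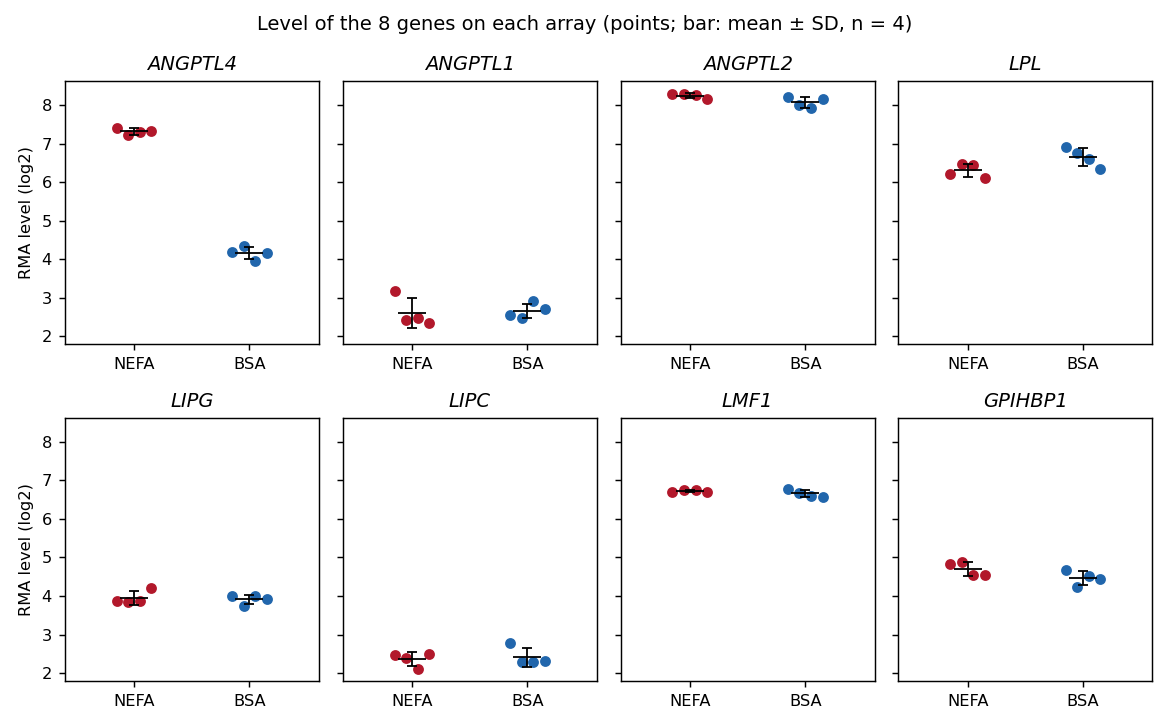
RMA level (log2, vertical axis, shared by all panels) of each of the 8 genes on the 4 NEFA and 4 BSA arrays; points are arrays, black bars the mean ± SD. The NEFA arrays of ANGPTL4 lie between 7.22 and 7.41, above all its BSA arrays, while in the other 7 panels the groups overlap.

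The nearest relatives of ANGPTL4 on the array did not pass. ANGPTL2, a secreted protein linked to inflammation in fat and vessels, read 8.28, 8.29, 8.27 and 8.15 with NEFA, against 8.21, 8.0, 7.92 and 8.15 with BSA. A NEFA array and a BSA array shared the value 8.15, and BSA 1 lay above NEFA 4, so the groups overlapped. The change was 0.18 (SE 0.075, limma, adjusted p = 0.30). The 95% interval ran from 0.01 to 0.35.

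ANGPTL1, known for restraining vessel growth, had a dim probe set. It read 3.17, 2.42, 2.48 and 2.34 with NEFA, against 2.57, 2.48, 2.91 and 2.71 with BSA. NEFA 1 was the highest of all 8 arrays and NEFA 4 the lowest. The change was -0.07 (SE 0.18, limma, adjusted p = 0.90), with a 95% interval of -0.48 to 0.35. Without NEFA 4 and without BSA 3 the change had the opposite sign, at 0.02 in both cases, so no direction can be given.

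Of 3 further angiopoietin-like genes measured, 1 rose. ANGPTL6, known as an angiopoietin-related growth factor, read 6.54, 6.59, 6.31 and 6.52 with NEFA, against 5.75, 5.93, 6.02 and 6.02 with BSA. The groups did not overlap. ANGPTL6 rose by 0.56 (SE 0.086, limma, adjusted p = 0.017), or 1.47-fold. The call ended without NEFA 1, without NEFA 2 and without BSA 2, each of which leaves fewer arrays, at adjusted p of 0.058, 0.058 and 0.056 (limma). ANGPTL7, named after its values were seen, changed by 0.18 (SE 0.14, limma, adjusted p = 0.60), and its NEFA arrays ran from 3.53 to 4.22, against 3.56 to 3.69 for its BSA arrays. Without NEFA 3 the change of ANGPTL7 was 0.04. ANGPTL5, also named after its values were seen, changed by -0.02 (limma, adjusted p = 0.92) on a dim probe set.

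LPL, the main target of ANGPTL4, was lower on average with NEFA but did not pass. It read 6.22, 6.47, 6.44 and 6.12 with NEFA, against 6.91, 6.76, 6.61 and 6.34 with BSA. The 3 highest arrays were all BSA arrays, but BSA 4 lay below NEFA 2 and NEFA 3. The mean was 6.31 ± 0.17 with NEFA and 6.66 ± 0.24 with BSA (SD, n = 4 each). The change was -0.34 (SE 0.13, limma, adjusted p = 0.25). The 95% interval of the NEFA over BSA fold ran from 0.641 to 0.971, and LPL passed in none of the 16 alternative settings run.

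LIPG, the endothelial lipase, which acts mainly on phospholipids of high-density lipoprotein, read 3.86, 3.85, 3.88 and 4.22 with NEFA, against 3.99, 3.74, 4.00 and 3.93 with BSA. NEFA 4 was the highest array and the other 3 NEFA arrays lay within the BSA range. The change was 0.04 (SE 0.10, limma, adjusted p = 0.89; 95% interval -0.19 to 0.27), and its sign turned with a further quantile normalization (-0.02), without NEFA 4 (-0.05) and without BSA 2 (-0.02).

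LIPC, the hepatic lipase, read 2.47, 2.40, 2.11 and 2.50 with NEFA, against 2.79, 2.28, 2.28 and 2.31 with BSA. Both extremes were single arrays, BSA 1 at the top and NEFA 3 at the bottom. The change was -0.05 (SE 0.14, limma, adjusted p = 0.91; 95% interval -0.35 to 0.26), and it was 0.08 without BSA 1 and 0.04 without NEFA 3. LIPC and ANGPTL1 were the 2 of the 8 genes whose probe sets lay among the dimmest 33.3% of all probe sets, where 0.343% of genes passed, against 3.11% of brighter genes.

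LMF1, the chaperone that lets newly made LPL, hepatic lipase and endothelial lipase reach their active form, read 6.71, 6.74, 6.75 and 6.70 with NEFA, against 6.78, 6.68, 6.60 and 6.58 with BSA. The NEFA arrays lay close together, and only BSA 1 stood above them. The change was 0.07 (SE 0.058, limma, adjusted p = 0.64), with a 95% interval of -0.07 to 0.20, the narrowest of the 8.

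GPIHBP1, which carries LPL across capillary endothelium and anchors it there, read 4.84, 4.87, 4.55 and 4.55 with NEFA, against 4.67, 4.24, 4.53 and 4.43 with BSA. NEFA 1 and NEFA 2 were above all BSA arrays, while NEFA 3 and NEFA 4 were below BSA 1. The change was 0.24 (SE 0.11, limma, adjusted p = 0.36; 95% interval -0.03 to 0.50). Endothelial markers were mostly dim: 5 of 8 lay among the dimmest 33.3%, among them PECAM1 at 2.97 with NEFA and 2.90 with BSA and CDH5 at 3.34 with NEFA and 3.33 with BSA. The array means of the endothelial list ran from 3.45 to 3.58 with NEFA and from 3.46 to 3.63 with BSA.

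**Figure D2:**
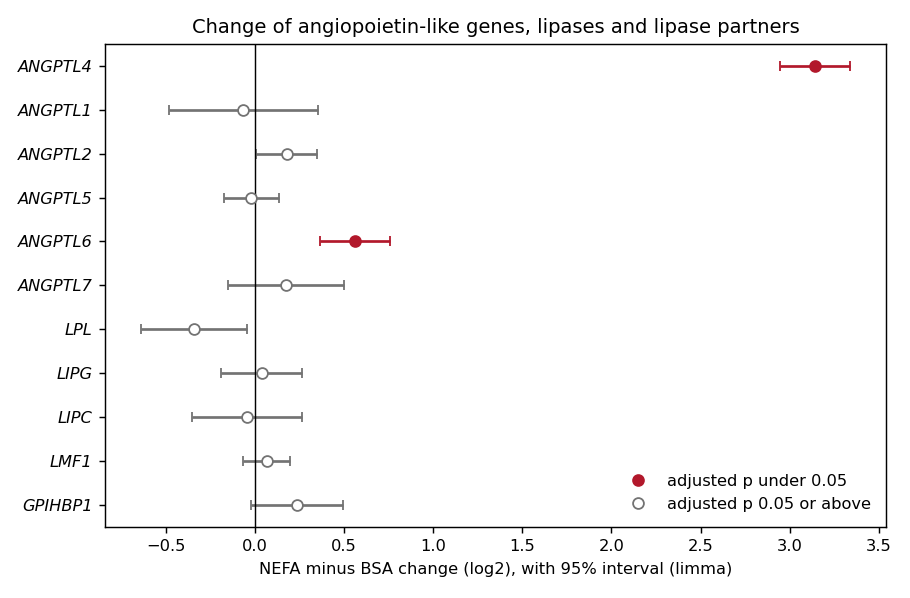
NEFA minus BSA change (log2, horizontal axis) of the 8 genes and of ANGPTL5, ANGPTL6 and ANGPTL7, with unadjusted 95% intervals from limma; filled red points passed at an adjusted p under 0.05. ANGPTL4 stands at 3.15 and ANGPTL6 at 0.56, and the other 9 genes lie between -0.34 and 0.24.

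Whether the change of ANGPTL4 differed from that of each other gene was tested directly. On each array the level of the other gene was subtracted from that of ANGPTL4, and these differences were compared between the groups by an exact two-sided permutation test over all 70 assignments of the arrays. The change of ANGPTL4 exceeded that of LPL by 3.49, that of LIPC by 3.19 and that of LIPG by 3.11. It exceeded that of ANGPTL1 by 3.21, that of ANGPTL2 by 2.97, that of LMF1 by 3.08 and that of GPIHBP1 by 2.91. In all 7 pairs the NEFA and BSA arrays were completely separated, and p was 0.0286, the smallest this design can give, before and after Benjamini-Hochberg adjustment over the 7 pairs. The ANGPTL4 arrays alone were at least 2.87 apart. No other gene was more than 0.69 higher on a NEFA array than on a BSA array. The separation in all 7 pairs thus follows from that of ANGPTL4, and the 7 p-values are not separate evidence. For LPL the difference between the 2 genes was 1.0 ± 0.23 with NEFA and -2.49 ± 0.25 with BSA (SD, n = 4 each), a shift of the difference and not a statement on which of the 2 transcripts is more abundant.

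The 3 genes outside the 8 whose levels followed ANGPTL4 most closely over the 8 arrays were CPT1A, PLIN2 and HADHA, at Pearson correlations of 0.998, 0.997 and 0.996. CPT1A admits long-chain fatty acids to mitochondria, PLIN2 coats lipid droplets and HADHA is a subunit of the mitochondrial trifunctional protein of beta-oxidation. CPT1A read 8.90, 8.89, 8.88 and 8.86 with NEFA, against 7.80, 7.87, 7.71 and 7.69 with BSA. PLIN2 read 10.61, 10.59, 10.58 and 10.57 with NEFA, against 9.44, 9.50, 9.46 and 9.54 with BSA. HADHA read 9.89, 9.90, 9.93 and 9.87 with NEFA, against 9.12, 9.19, 9.15 and 9.18 with BSA. All 3 share with ANGPTL4 a wide gap between the groups and little spread within them, and that gap enters the correlation. For HADHA these are values of its brightest probe set, at a change of 0.74. The mean of its probe sets changed by 0.36.

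When each array was set against its own group mean, the 3 closest genes were others, namely KANSL2, TOMM22 and CETN4, at correlations of 0.989, 0.974 and 0.973 over the 8 deviations. KANSL2 belongs to a histone acetyltransferase complex and TOMM22 to the import pore of the outer mitochondrial membrane. Their changes were -0.08, -0.06 and -0.11, and none passed (limma, adjusted p = 0.52, 0.72 and 0.49). With so few arrays and so many genes, such correlations say little. Among the 8 genes, the within-group correlation with ANGPTL4 was 0.05 for LPL, 0.32 for LMF1 and -0.38 for GPIHBP1.

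**Figure D3:**
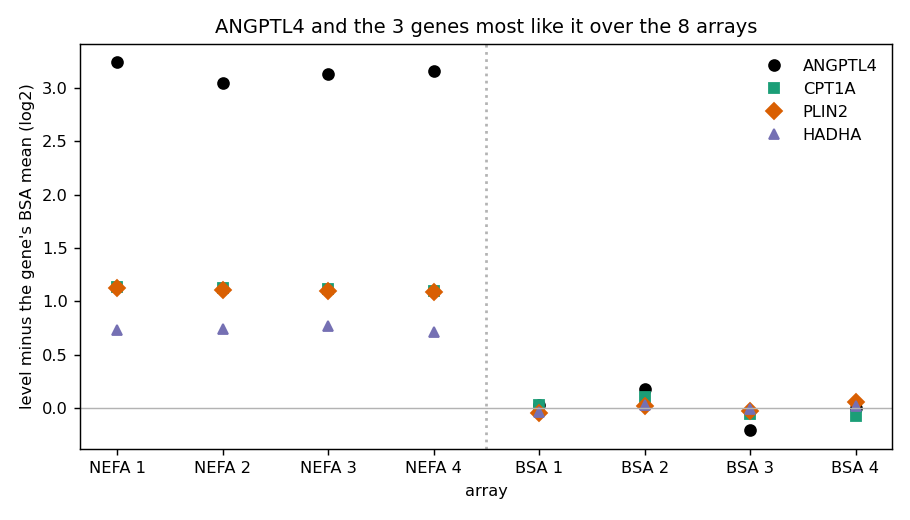
Level minus the gene's own BSA mean (log2, vertical axis) on each array (horizontal axis) for ANGPTL4, CPT1A, PLIN2 and HADHA. All 4 genes are flat within the NEFA arrays and near 0 on the BSA arrays, with ANGPTL4 about 3 units up on each NEFA array.

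Around these genes, 8 lists holding 80 genes were examined, of which 73 were measured, 9 rose and 3 fell, with CD36, which is in both the receptor list and the PPAR target list, counted once. Over all genes 0.999% rose and 1.35% fell, and 16.8% had an unadjusted p under 0.05 in limma. The lists were drawn up with earlier results of these arrays known, so these counts are not independent evidence. In the list of LPL folding, surface binding, cleavage and sorting, 0 of 14 genes passed in limma, 3 had an unadjusted p under 0.05, and the median change was -0.01. The gene with the smallest p was SORT1, a sorting receptor, which read 8.68 ± 0.03 with NEFA and 8.85 ± 0.03 with BSA (SD, n = 4 each; limma, adjusted p = 0.12). Its groups did not overlap, and it passed with trend and robust eBayes and without moderation (adjusted p = 0.012 and 0.023, in a range from 0.012 to 0.25). SDC1, a heparan sulphate proteoglycan that can hold LPL, and SEL1L, an endoplasmic reticulum protein needed in mice for LPL to leave the cell, changed by 0.38 and -0.04 (limma, adjusted p = 0.16 and 0.78); both were named after their values were seen. Of 5 other lipases of the LPL family, 0 passed in limma (1 at an unadjusted p under 0.05), all 5 were among the dimmest 33.3%, and PLA1A, a phospholipase that acts on phosphatidylserine, had the smallest p at a change of 0.17 (limma, adjusted p = 0.29).

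Among 7 measured apolipoproteins 1 rose, with a median change of 0.25. APOE, a ligand of lipoprotein receptors, read 7.59, 7.69, 7.64 and 7.53 with NEFA, against 7.18, 7.37, 7.26 and 7.18 with BSA. The groups were separate, and APOE rose by 0.37 (SE 0.064, limma, adjusted p = 0.028). The call ended with array centring (0.33, adjusted p = 0.057) and without 6 of the arrays, NEFA 1, 2 and 3 and BSA 1, 3 and 4 (adjusted p from 0.073 to 0.087), in a range from 0.0012 to 0.087 over all settings. With the replicate number as a block the call of APOE also ended (limma, adjusted p = 0.081). APOC2, the cofactor that LPL needs, was named after its values were seen. It ran from 3.59 to 3.99 with NEFA and from 3.43 to 3.71 with BSA, a change of 0.25 that did not pass (limma, adjusted p = 0.32).

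Of 7 lipoprotein and fatty acid receptors, 1 rose, and the other 6 had lower values but did not pass; the median change was -0.08. The riser was CD36, which takes up fatty acids, including those that LPL frees. It read 9.36, 9.44, 9.32 and 9.49 with NEFA, against 6.65, 6.43, 6.65 and 6.77 with BSA, a change of 2.78 (SE 0.080, limma, adjusted p = 1.99e-06). VLDLR and SCARB1 were named after their values were seen. VLDLR, which binds lipoproteins that carry LPL, changed by -0.15 (adjusted p = 0.39). SCARB1, the receptor for high-density lipoprotein, changed by -0.23 (adjusted p = 0.052), close to the threshold, which it crossed in 4 of the 16 alternative settings (adjusted p from 1.63e-04 to 0.18).

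**Figure D4:**
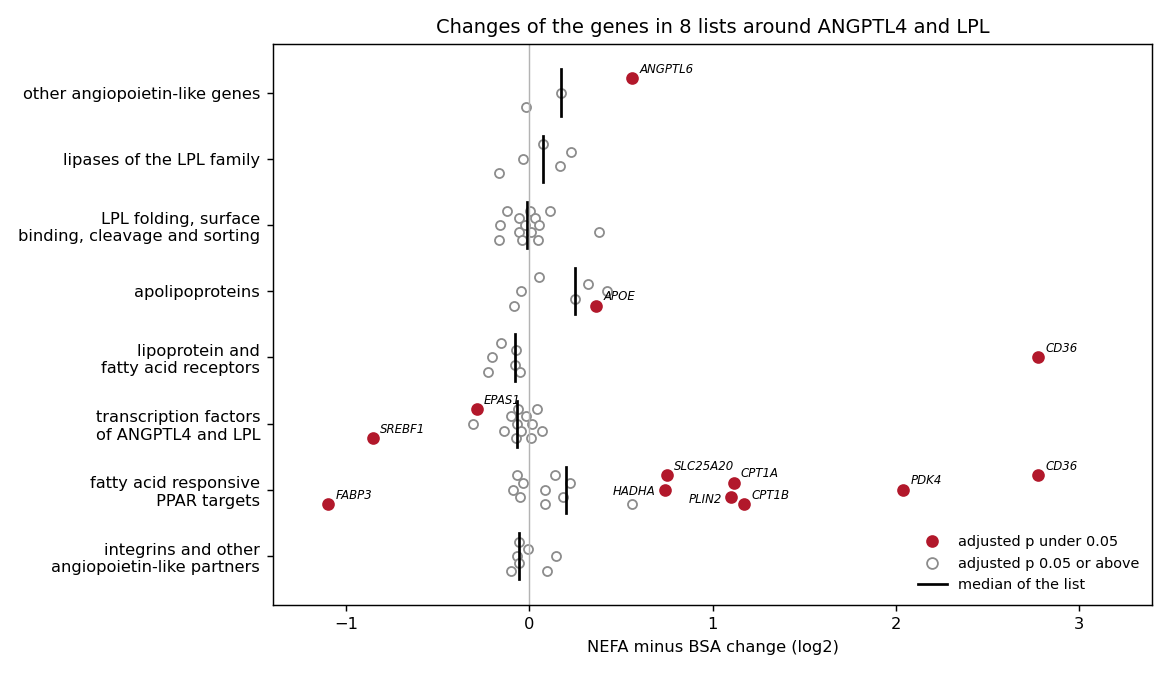
NEFA minus BSA change (log2, horizontal axis) of each measured gene in 8 lists (vertical axis); filled red points passed at an adjusted p under 0.05, open points did not, and bars are list medians. The called genes lie mainly in the list of PPAR targets, and the LPL folding, other lipase and integrin lists hold none. The lists were drawn up with earlier results of these arrays known.

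Among 14 transcription factors known to act on ANGPTL4 or LPL, 2 fell and 0 rose, with a median change of -0.07. SREBF1, the sterol and fatty acid synthesis regulator, read 5.19, 4.90, 5.10 and 5.17 with NEFA, against 5.99, 6.03, 5.90 and 5.86 with BSA. It fell by 0.85 on the log2 scale (SE 0.077, limma, adjusted p = 0.0017). EPAS1, the oxygen-regulated factor also called HIF-2 alpha, read 8.36 ± 0.07 with NEFA and 8.64 ± 0.06 with BSA (SD, n = 4 each; limma, adjusted p = 0.044), and lost its call without any one of the 8 arrays (adjusted p from 0.077 to 0.12) and with a further quantile normalization (-0.26, adjusted p = 0.059; over all settings, adjusted p from 0.0014 to 0.13). It also lost its call with the replicate number as a block (limma, adjusted p = 0.13).

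The transcripts of the PPAR receptors themselves, named after their values were seen, did not pass. PPARA read 6.12, 6.33, 6.18 and 6.19 with NEFA, against 6.38, 6.66, 6.66 and 6.36 with BSA. Every NEFA array lay below every BSA array, and the change was -0.31 (SE 0.090, limma, adjusted p = 0.14); it passed with trend and robust eBayes alone (adjusted p = 0.047, in a range up to 0.27). PPARD changed by -0.10 (adjusted p = 0.61) and PPARG by 0.04 (adjusted p = 0.75). HIF1A, through which low oxygen can raise ANGPTL4, changed by 0.07 (adjusted p = 0.54).

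Of 18 measured genes in the list of fatty acid responsive PPAR targets, which leaves out ANGPTL4, 7 rose and 1 fell. Over all genes the shares were 0.999% and 1.35%. The median change over the 18 was 0.20, and 10 did not pass. The list was drawn up with earlier results of these arrays known, so its count is not independent evidence of its direction. After CD36 the largest rise was that of PDK4, a kinase that restrains pyruvate oxidation, at 7.20 ± 0.22 with NEFA and 5.16 ± 0.27 with BSA (SD, n = 4 each). It was followed by CPT1B at 6.27 ± 0.12 with NEFA and 5.10 ± 0.11 with BSA. CPT1A, PLIN2, HADHA and SLC25A20, the carnitine carrier, rose by 1.11, 1.10, 0.74 and 0.75. For HADHA the mean of its probe sets gave 0.36 (adjusted p = 0.041, the highest over its settings). FABP3, a fatty acid binding protein, ran against these at 7.89 ± 0.15 with NEFA and 8.99 ± 0.08 with BSA. SLC25A20 and FABP3 were named after their values were seen.

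HILPDA, an inhibitor of the lipase that opens lipid droplets inside the cell, is induced by fatty acids and low oxygen in other cell types, as ANGPTL4 is. It was named after its values were seen. It read 4.78, 4.92, 4.83 and 4.19 with NEFA, against 4.00, 4.13, 4.18 and 4.18 with BSA. NEFA 4 lay just above the BSA arrays and the other 3 NEFA arrays well above them. The change was 0.56 (SE 0.15, limma, adjusted p = 0.11), and without NEFA 4 it was 0.72 and passed (adjusted p = 0.0052, in a range up to 0.23). It also passed with trend and robust eBayes (adjusted p = 0.039). In the list of integrins and other partners of angiopoietin-like proteins, 0 of 7 genes passed in limma, 0 had an unadjusted p under 0.05, and the smallest p was that of ITGB3, an integrin subunit, at a change of 0.15 (adjusted p = 0.36).

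Markers of other cells were set beside these results. Of all genes, 16.8% had an unadjusted p under 0.05 in limma. In the adipocyte list 0 of 6 genes passed in limma, 1 had an unadjusted p under 0.05, and array means ran from 3.13 to 3.27 with NEFA and from 3.13 to 3.26 with BSA, with ADIPOQ and FABP4 among the dimmest 33.3%. In the leukocyte list 0 of 7 passed in limma and 1 had an unadjusted p under 0.05, with array means from 3.70 to 3.96 with NEFA and from 3.72 to 3.85 with BSA. In the endothelial list 1 of 8 fell, VWF (4.92 ± 0.11 with NEFA and 5.26 ± 0.06 with BSA; limma, adjusted p = 0.039). Values were higher with NEFA for 5 of the 8, and 2 had an unadjusted p under 0.05, VWF and CLDN5 (change 0.20).

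For 2 lists of other ovarian cells the array means did not overlap between the groups, though few or no genes passed. Array means were also separate for the lists of other angiopoietin-like genes, apolipoproteins, receptors, transcription factors and PPAR targets. In the smooth muscle and pericyte list 1 of 5 rose, RGS5 (4.34 ± 0.33 with NEFA and 3.45 ± 0.26 with BSA; limma, adjusted p = 0.047). In that list 4 of 5 genes had an unadjusted p under 0.05, beside 16.8% of all genes. Of those 4, PDGFRB had a lower value (change -0.18). The array means of the list ran from 5.53 to 5.83 with NEFA and from 5.27 to 5.41 with BSA. In the theca list 0 of 5 passed in limma, 4 had an unadjusted p under 0.05, beside 16.8% of all genes, and the array means ran from 5.86 to 5.96 with NEFA and from 5.63 to 5.78 with BSA. All 5 theca genes had higher values with NEFA, at a median change of 0.22. The part of these other ovarian cells in the changes of ANGPTL4, ANGPTL6 and the other genes was not tested. CLDN5, PDGFRB, VWF and RGS5 were named after their values were seen. The calls of VWF and RGS5 ended without 7 and 8 of the arrays in turn (adjusted p up to 0.11 for VWF and 0.12 for RGS5). Without moderation both ended (adjusted p = 0.053 and 0.11), and that of RGS5 also with a further quantile normalization, array centring and array weights (adjusted p = 0.068, 0.053 and 0.056). With the replicate number as a block both calls also ended (limma, adjusted p = 0.094 for VWF and 0.12 for RGS5). The granulosa list had array means from 8.14 to 8.30 with NEFA and from 8.13 to 8.37 with BSA. Of its 12 genes, 0 passed in limma and 6 had an unadjusted p under 0.05, beside 16.8% of all genes.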

How the data were processed

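The 8 arrays hold 24415 probe sets, and the deposited log2 values were made by the authors with RMA, per the submitters' processing notes. For the software, its version and the genome build the sources used here name nothing, so no coordinates are printed. Arrays give no read depth, and their number limits the precision. Gene names came from the platform annotation, with symbols updated by gene ID (RefSeq, assembly ARS-UCD2.0, 17996 matched); 18457 had 1 symbol, 688 several and 5270 none. The brightest probe set over the 8 arrays stood for a gene. Groups were compared with limma 3.58.1 in R 4.3.3 (lmFit and eBayes, no further normalization), with Benjamini-Hochberg adjustment over all probe sets and a threshold of 0.05. The limma step was tested on simulated data. The rule for named genes took the 8 genes, up to 4 called genes of each list or the one of smallest p, and the 3 genes most like ANGPTL4 by each of 2 measures; others are said to be named after their values were seen. The members and lists were chosen with earlier results of these data known. Alternatives are given in the closing section.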

Additional observations from a re-analysis of the deposited data

Results flagged for a closer look

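In 4 groups of 4 arrays, 1 array stood far from the other 3, by Dixon's gap test at its 95% critical value. ANGPTL1 read 3.17 on NEFA 1, against 2.34 to 2.48 on the other NEFA arrays. ANGPTL2 read 8.15 on NEFA 4, against 8.27 to 8.29 on the others, and LIPG read 4.22 on NEFA 4, against 3.85 to 3.88. LIPC read 2.79 on BSA 1, against 2.28 to 2.31 on the other BSA arrays. Chance sets apart about 1 in 20 such groups, and 84 groups of the 42 genes named were looked at. ANGPTL4 had no such array in either group.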

How the results depend on the processing

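The call of ANGPTL4 held in all 16 alternative settings: a further quantile normalization, array median centring, leaving out the dimmest 33.3% of probe sets, trend and robust eBayes, array weights, no moderation, averaging the probe sets of a gene, the replicate number as a block and leaving out each array in turn. Its change ran from 3.08 to 3.21 (limma, adjusted p from 3.77e-11 to 0.0012). Averaging could not alter its values, since ANGPTL4 has 1 probe set. Leaving out dim probe sets, trend and robust eBayes, no moderation and the block can alter only its SE and p. In each setting 1 of the 8 genes passed, with ANGPTL1 and LIPC not tested without the dimmest probe sets. Over all genes 423 passed, 790 without the dimmest 33.3%, 1097 with trend and robust eBayes and 77 with the replicate block, and 164 to 260 with 1 array left out (fewer arrays); the cause of the other differences was not tested. Centring gave 127 higher and 302 lower, against 180 and 243. The excess of the ANGPTL4 change kept its direction in every setting run, but 4 against 3 arrays cannot give a p under 0.0571. Array centring and averaging could not alter the excess, since a shift of a whole array cancels and each gene had 1 probe set. With 1 array left out the excess ran from 3.06 to 3.37 over ANGPTL1, 2.93 to 3.05 over ANGPTL2, 3.41 to 3.59 over LPL, 3.01 to 3.23 over LIPG, 3.08 to 3.30 over LIPC, 3.03 to 3.13 over LMF1 and 2.82 to 3.05 over GPIHBP1. With the replicate block the excesses must equal those without it, since the groups are of equal size. In that order they were 3.21, 2.97, 3.49, 3.11, 3.19, 3.08 and 2.91, and the smallest p of the paired exact test is 0.125.

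The labels do not say that a replicate number marks a shared animal, pool or day, so the numbers were not taken as pairs. Over all probe sets, deviations of same-numbered arrays from their group means had correlations of -0.01, 0.05, 0.04 and 0.07. Of 8 arrays, 5 correlated best with their own number. These 8 comparisons use the same array pairs from both sides, and the count was not tested against chance. It comes from the data and not the design. Such correlations include dim probe sets and do not settle whether a number marks a pair. Among the genes named, the block ended the calls of ANGPTL6, APOE, EPAS1, VWF and RGS5 (limma, adjusted p = 0.11, 0.081, 0.13, 0.094 and 0.12). The sign of LIPG turned with a further quantile normalization (-0.021). With 1 array left out, the changes ran from -0.25 to 0.023 for ANGPTL1, from -0.052 to 0.072 for LIPG, from -0.09 to 0.08 for LIPC and from -0.053 to 0.01 for ANGPTL5; none of these passed in any setting that tested it, and the cause was not tested.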
